A study of Homo sapiens with 26 samples.

Results

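The 10 genes described here build and run the melanosome, the organelle in which pigment cells make and store melanin. They were chosen by name: Tyr, Tyrp1, Dct, Pmel, Mlana, Oca2, Slc45a2, Slc24a5, Trpm1 and Gpr143 were looked up among the 55353 gene rows of the 2 input count files, and the row PMEL also among the 56638 gene rows of the 24 gradient fraction files. All 10 names are present in the input files. The samples come from SK-MEL-28, an established human melanoma cell line grown in a serum-supplemented standard medium. In 13 samples the cells were kept in salubrinal for 72 h, and the other 13 are untreated controls; all cells in the gradient protocol also received cycloheximide at 100 µg/mL for 12 min, an inhibitor that holds ribosomes on their mRNA. Salubrinal keeps the translation factor eIF2α phosphorylated, which switches on the integrated stress response. There is 1 input library of total RNA per treatment. The remaining 24 files cover a sucrose gradient (5 to 20%) whose 14 collected fractions were combined into 4 pools (40S, 60S, 80S and polysome), each in 3 replicates per treatment. The labels' cell-line field gives a different numbered name for each sample, and the titles, which all give SK-MEL-28, were followed.

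Melanin synthesis starts with tyrosinase, encoded by Tyr, which oxidises tyrosine; the related enzymes encoded by Dct and Tyrp1 act on later intermediates. Pmel encodes the amyloid protein whose fibrils form the sheets on which melanin is laid down. Oca2, Slc45a2 and Slc24a5 encode membrane transport proteins that shape the ionic milieu of pigment organelles, and loss of any of them causes albinism. In melanocytes and many melanomas these genes are switched on by the transcription factor MITF, which binds E-box sequences whose pigment-gene form, the M-box, has the core CATGTG.

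Of the 10 members 8 have at least 1 entry in the RefSeq promoter table (build GRCh38.p14, 250 bases before to 50 after each annotated start), which gives 10 promoters in all. PMEL and SLC45A2 have no entry. The M-box core CATGTG, searched on both strands, occurs in 8 of these 10 promoters and in 7 of the 8 genes (Tyr, Tyrp1, Dct, Oca2, Slc24a5, Trpm1 and Gpr143, under their human symbols), against 11.1% of the 35116 promoters in the table. The exception was MLANA. The palindromic E-box CACGTG occurs in none of the 10, against 7.26% of all. A match is a run of letters and not a measured binding site. Because the M-box is the pigment-gene form of the E-box, its high share among pigment genes is no independent finding. The 4 human promoters below belong to the 2 members with the lowest input ratios, DCT and TRPM1, and the 2 with the highest, TYR and SLC24A5; capitals mark the core on either strand, and each sequence runs 5′ to 3′ on the strand of its gene.
TYR (chr11:89177625-89177924, + strand): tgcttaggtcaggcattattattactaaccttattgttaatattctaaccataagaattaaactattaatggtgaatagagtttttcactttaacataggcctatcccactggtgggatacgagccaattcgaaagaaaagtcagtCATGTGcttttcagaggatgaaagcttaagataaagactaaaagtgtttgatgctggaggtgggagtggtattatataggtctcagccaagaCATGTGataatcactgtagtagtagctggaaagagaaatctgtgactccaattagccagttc
SLC24A5 (chr15:48120740-48121039, + strand): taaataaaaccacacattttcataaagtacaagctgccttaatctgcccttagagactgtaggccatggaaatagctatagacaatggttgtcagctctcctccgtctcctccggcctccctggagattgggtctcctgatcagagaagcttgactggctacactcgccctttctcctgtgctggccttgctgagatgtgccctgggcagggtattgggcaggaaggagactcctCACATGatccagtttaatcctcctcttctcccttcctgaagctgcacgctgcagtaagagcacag
DCT (chr13:94479633-94479932, - strand): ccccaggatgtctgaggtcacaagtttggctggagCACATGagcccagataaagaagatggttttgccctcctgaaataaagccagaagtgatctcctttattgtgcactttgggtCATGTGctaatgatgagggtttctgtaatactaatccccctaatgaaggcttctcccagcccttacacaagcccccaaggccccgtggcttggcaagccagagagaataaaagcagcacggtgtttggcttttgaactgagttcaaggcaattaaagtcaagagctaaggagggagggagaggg
TRPM1 (chr15:31101676-31101975, - strand): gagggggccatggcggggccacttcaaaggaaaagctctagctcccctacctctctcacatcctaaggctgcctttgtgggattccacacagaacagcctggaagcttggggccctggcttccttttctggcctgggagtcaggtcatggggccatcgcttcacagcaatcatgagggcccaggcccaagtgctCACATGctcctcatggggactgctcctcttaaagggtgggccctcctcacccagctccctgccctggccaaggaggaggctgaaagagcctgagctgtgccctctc
All 4 windows hold the core. With 7 of the 8 genes holding it, these windows cannot show whether its presence goes with the input ratios, which was not tested. The core starts 104 and 12 bases before the start of TYR, 215 and 134 bases before this start of DCT, 56 bases before this start of TRPM1 and 15 bases before that of SLC24A5. DCT has a second listed promoter, without the core, and TRPM1 a second one with it.

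The input files hold 10245548 counts on gene rows with salubrinal and 12068784 without, 7.06 and 5.94% of all their counts. Their rows carry mouse-style symbols although the cells are human, and no source used here names the reference behind them, so a low count cannot be read as weak expression and levels are not compared between genes. The 6 melanocytic markers chosen (Sox10, Mitf, S100b, Pax3, Tfap2a and Ednrb) all had at least 50 counts over both files. They held 5545 counts in sum with salubrinal and 6078 without, with a median log2 ratio of -0.64. Sox10 and Mitf were lowest at -1.46 and -1.01, Pax3 stood at -0.25 and S100b was highest at 0.15. Other pigment-cell genes were at or near 0: Kit had 0 counts with salubrinal and 1 without, Tyrp1 0 and 5, and Mlana 0 in both. In such bulk samples fewer cells of a type and less RNA per cell cannot be told apart. Markers of other cell types had few counts, with 66 and 29 counts on 6 keratinocyte rows, 50 and 46 on 6 fibroblast rows, 15 and 13 on 5 endothelial rows and 7 and 1 on 5 haematopoietic rows; 3 of the 6 keratinocyte rows and 2 of each other list were at 0 in both files. Among these lists 2 rows reached the minimum of 50 counts, Krt10 (43 and 23 counts, log2 ratio 0.19) and Lum (43 and 42, -0.64). By the limit given above, the low counts on these rows do not show that such cells are absent.

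Most of the measured pigment genes stood lower in the salubrinal input, by amounts that ranged from nearly none for Tyr to about 6-fold for Trpm1. With at least 50 counts over both files set as the minimum, 8 of the 10 members could be measured. Of these, 5 (Trpm1, Dct, Oca2, Slc45a2 and Pmel) were at least 2-fold lower with salubrinal, 0 were at least 2-fold higher, and the median log2 ratio of the 8 was -1.26. Among all 10614 rows that met the minimum, 3.8% lay past 2-fold on the lower side and 2.75% on the higher, with a median of 0.02; with a minimum of 200 counts these shares were 2.48% and 2.06%. The log2 ratio compares counts scaled by TMM (trimmed mean of M values) with a prior count of 2. There is 1 library per treatment, so no test was made, and the intervals below are exact binomial ones at 95% that cover counting error only.

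**Figure D1:**
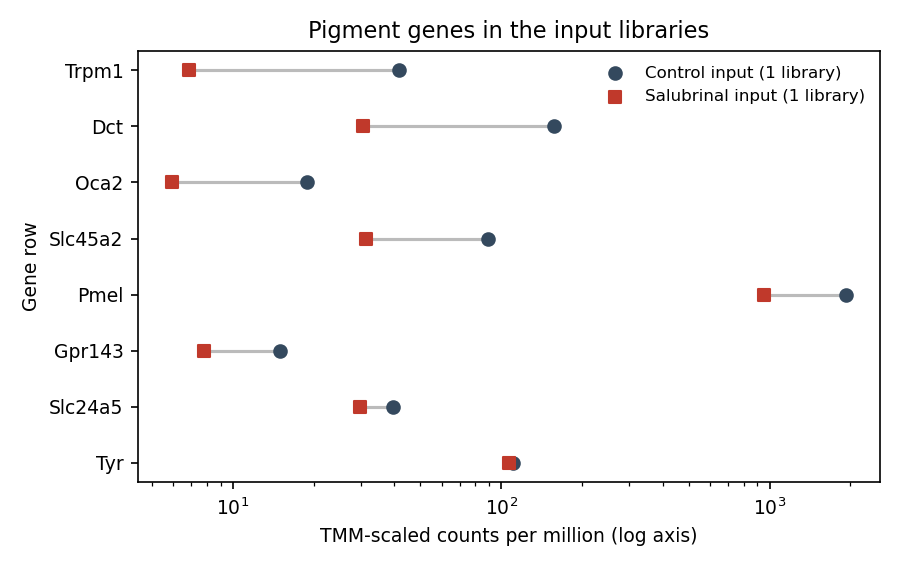
TMM-scaled CPM (log axis) of the 8 measured pigment genes in the control input (circles) and the salubrinal input (squares), 1 library each. Every pair has the control point to the right, with the widest gap for Trpm1 (41.6 against 6.83) and almost none for Tyr (111 against 107).

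The melanin enzymes did not share a ratio. Tyr had 1524 counts with salubrinal and 963 without, which after scaling to 107 and 111 CPM (counts scaled to a common library size) gives a log2 ratio of -0.04 (-0.16 to 0.08). Dct, for dopachrome tautomerase, had 432 and 1374 counts, 30.4 and 158 CPM, and a log2 ratio of -2.37 (-2.53 to -2.22). The Tyr row was thus level between the libraries within counting error, while the Dct row was 5.16-fold lower with salubrinal. Only 13 of the 10614 rows had a ratio below that of Dct, and 4687 had one below that of Tyr. Tyrp1 had 0 counts with salubrinal and 5 without, too few for a ratio.

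The melanosome structure gene Pmel held the most counts among the members in both files, 13535 with salubrinal and 16793 without. Scaled, these are 953 CPM against 1928 CPM in the control, and the log2 ratio was -1.02 (-1.05 to -0.98). That places it just past the 2-fold mark, with 372 rows lower. Gpr143, which encodes the melanosomal receptor lost in ocular albinism, lay just inside the mark at -0.92 (-1.31 to -0.56), from 111 and 130 counts. The intervals of both genes reach across -1, so their place on either side of the mark is not settled by the counts. Mlana, which encodes the melanosome antigen also called MART-1, had 0 counts in both files.

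The transport genes lay apart from each other as well. Oca2 had 84 counts with salubrinal and 164 without, a log2 ratio of -1.64 (-2.07 to -1.28). Slc45a2, with 443 and 778 counts, stood at -1.51 (-1.69 to -1.35), equal to Oca2 within counting error. Slc24a5, a potassium-dependent sodium and calcium exchanger gene, had 421 and 344 counts and a log2 ratio of -0.41 (-0.62 to -0.20), smaller in size than either. Trpm1, a cation channel gene first known from melanocytes, had 97 counts with salubrinal and 362 without, 6.83 and 41.6 CPM. Its log2 ratio of -2.57 (-2.94 to -2.28) was the lowest of the members, and 5 of the 10614 rows lay below it. The microRNA gene Mir211 lies within Trpm1, and its row had 0 counts with salubrinal and 1 without.

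Differences between members do not depend on how the libraries are scaled, because each is a ratio of 2 ratios from the same pair of files. In 25 of the 28 pairs of measured members the 95% interval of that quotient excluded 1. Pairs of other rows were not compared in this way, so the count is not read as a trait of pigment genes. The salubrinal-to-control ratio of Tyr was 5.03 times that of Dct (4.39 to 5.78) and 5.91 times that of Trpm1 (4.63 to 7.57). Slc24a5 stood 2.15 times above Slc45a2 (1.78 to 2.60) and 2.39 times above Oca2 (1.75 to 3.26). The 3 pairs whose interval included 1 were Dct and Trpm1 (1.17, 0.91 to 1.52), Slc45a2 and Oca2 (1.11, 0.83 to 1.5), and Gpr143 and Pmel (1.06, 0.81 to 1.38). The members therefore order, from lowest ratio to highest, as Trpm1 with Dct, Oca2 with Slc45a2, Pmel with Gpr143, Slc24a5, and Tyr, where members joined by "with" were not told apart by counting error. Whether this order would repeat in further cultures was not tested.

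Scaling sets where the 0 line falls. With total gene-row counts in place of TMM the median of all rows moves up by 0.93, since the row CT010467.1 took 12.8% of gene-row counts with salubrinal and 56.7% without. On that scale Tyr stood at 0.90, Slc24a5 at 0.52, Gpr143 at 0.01 and Pmel at -0.07, while Slc45a2 (-0.57), Oca2 (-0.72), Dct (-1.43) and Trpm1 (-1.65) remained negative, and 2 members were at least 2-fold lower. Taken against the moved median, 5 members were at least 2-fold lower. This follows from the scaling, which moves every row by nearly the same amount, and is no separate check.

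**Figure D2:**
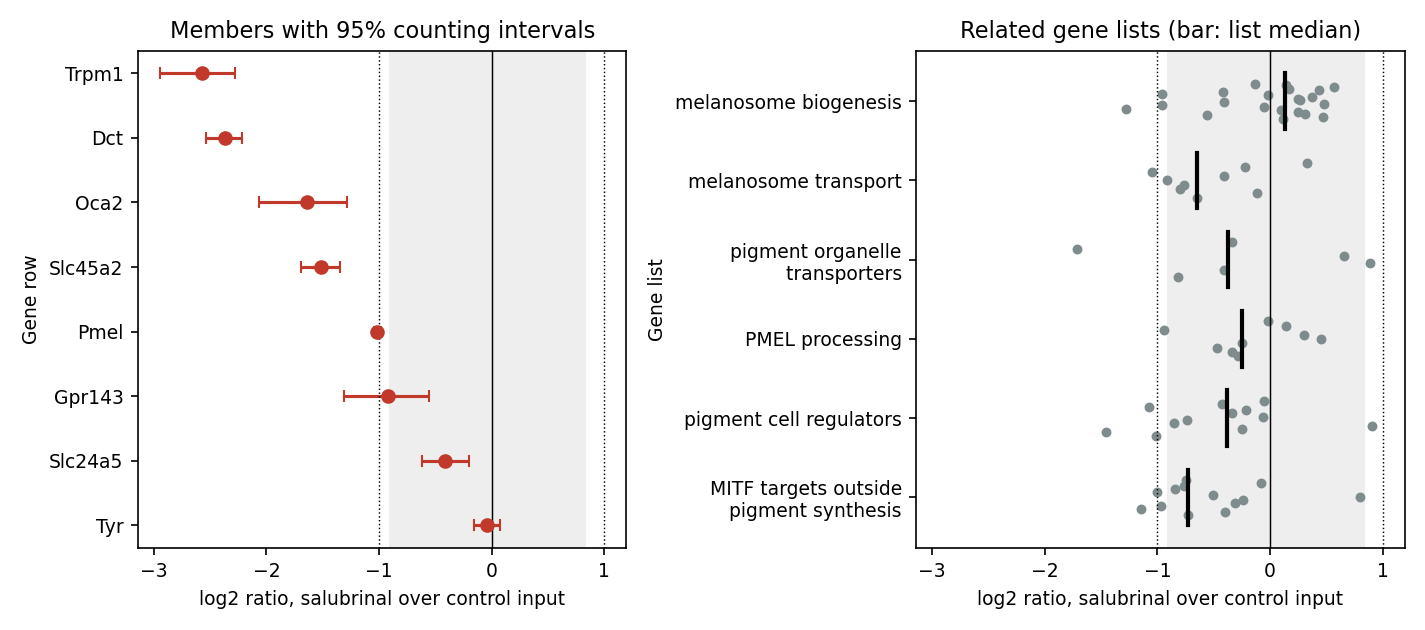
Log2 ratios of salubrinal over control input. Left, the 8 measured members with 95% counting intervals; right, every measured gene of 6 related lists, with a bar at each list median; grey spans the 5th to 95th percentile of all 10614 rows (-0.90 to 0.83) and dotted lines mark a 2-fold difference. Members reach down to -2.57, below every gene of the 6 lists, of which the lowest is Clcn7 at -1.71.

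The machinery that builds melanosomes did not share the low ratios of the pigment genes. Of the 22 measured genes of melanosome biogenesis, which sort cargo from endosomes, 1 was at least 2-fold lower and 0 higher, and the median was 0.13. The highest were Vamp7, a fusion protein gene, at 0.57 and Ap3b1, an adaptor subunit gene, at 0.48. The lowest were Hps4 at -1.28 and Hps6 at -0.96, both genes of Hermansky-Pudlak syndrome complexes. The counting intervals of Hps4 (-1.69 to -0.91) and Hps6 (-1.43 to -0.54) both reach across the 2-fold mark. The 9 measured transport genes, which move melanosomes along the cytoskeleton, had a median of -0.65, with 8 below 0. Rab3a (-1.05) lay past 2-fold, though its counting interval (-1.78 to -0.43) reaches across that mark. Rab17 stood at -0.92, Mlph at -0.12 and Kif5b, a kinesin heavy chain gene, at 0.33. Of all measured rows 48.0% lay below 0.

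Other transporters of pigment organelles had a median of -0.37 over 6 measured genes. They spread from Clcn7, a lysosomal chloride transporter gene, at -1.71 and the copper pump gene Atp7a at -0.81 to the cystine transporter genes Ctns at 0.65 and Slc7a11 at 0.88. Genes for proteins that cut or sort PMEL had a median of -0.24 over 9 measured genes, none of them 2-fold apart. Psen2 and Pcsk6 were lowest at -0.94 and -0.47, and Adam17 was highest at 0.45.

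Upstream regulators of pigment cells had a median of -0.38 over 12 measured genes, with 11 below 0. At least 2-fold lower were 3, against 3.8% of all measured rows. Those 3 were the transcription factor genes Sox10 (-1.46) and Mitf (-1.01), which drive the melanocyte lineage, and Mc1r (-1.07), the melanocortin receptor gene. The counting interval of Sox10 (-1.59 to -1.33) lay wholly past the 2-fold mark. Those of Mitf (-1.09 to -0.94) and Mc1r (-1.51 to -0.68) reach across it, so the counts do not settle their place. Creb1 (-0.05) and Lef1 (0.91) were the highest. Reported MITF targets outside pigment synthesis had a median of -0.72 over 13 measured genes, with 12 below 0 and 2 at least 2-fold lower. These 2 were the coactivator gene Ppargc1a (-1.14, interval -1.44 to -0.87) and Birc7 (-1.005, interval -1.67 to -0.43). Both intervals reach across the 2-fold mark, so the place of these genes is not settled either. Rragd (-0.08) and Hif1a (0.80) were the highest. Cdk2, a target whose gene neighbours PMEL, stood at -0.72. These lists were assembled with earlier results of these data known, and their values describe 1 library per treatment. Except for melanosome biogenesis, the medians given here turn positive with total-count scaling. On that scale they lie below the moved median of all rows, which follows from the common shift.

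In the gradient files PMEL was the one pigment row with enough reads to test, and it was lower with salubrinal. Counts there were sparse: totals ran from 6627394 to 12984883 per file with 4.72 to 5.79% on gene rows, and 93.5 to 99.9% of the gene-row counts lay on ribosomal RNA (rRNA) rows. PMEL held 343 counts over the 24 files, 43 with salubrinal and 300 without. Of the other 9 members, TYR, TYRP1, OCA2 and GPR143 had 0 counts in all 24 files, and SLC24A5 (8), MLANA (7), DCT (2), SLC45A2 (1) and TRPM1 (1) had 19 counts among them.

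The 4 fraction files of a replicate held the same counts outside rRNA rows within sampling noise, which bears on every PMEL value that follows. For the 6 sets the ratio of chi-square to its degrees of freedom lay between 0.936 and 1.03 (smallest Benjamini-Hochberg p = 0.537). These tests used from 28 rows (salubrinal library 2) to 1353 rows (control library 3), so they are weak for the shallow libraries. Of 18 files matched singly to a 60S file, the worst fit was 80S of salubrinal library 2 (1.73, unadjusted chi-square p = 0.0243). The 40S file of salubrinal library 3 gave 1.14 (unadjusted chi-square p = 0.00992). Among controls, 40S replicate 1 by title matched the other pools of replicate 2 and the reverse, so these 2 files were placed by their match. The 4 files of a set were therefore summed and counted as 1 library, giving 3 libraries per treatment. Each pool is also given as designed, and the pools are not independent evidence of each other.

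The control libraries held 137, 20 and 143 PMEL counts, and the salubrinal libraries 1, 0 and 42. Depth differed widely, with 86473, 22640 and 93743 counts outside rRNA rows in the controls and 10158, 3768 and 73598 with salubrinal. Per 10000 counts outside rRNA, PMEL took 15.8 (95% exact binomial interval 13.3 to 18.7), 8.83 (5.40 to 13.6) and 15.3 (12.9 to 18.0) in the controls. It took 0.984 (0.025 to 5.48), 0 and 5.71 (4.11 to 7.71) with salubrinal, where the interval of the 0 reaches 9.79, above the lowest control share; 3 of its 3768 counts would be 7.96. Every salubrinal share lay below every control share. The intervals of salubrinal libraries 1 and 3 lie below those of control libraries 1 and 3 and overlap that of control library 2.

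**Figure D3:**
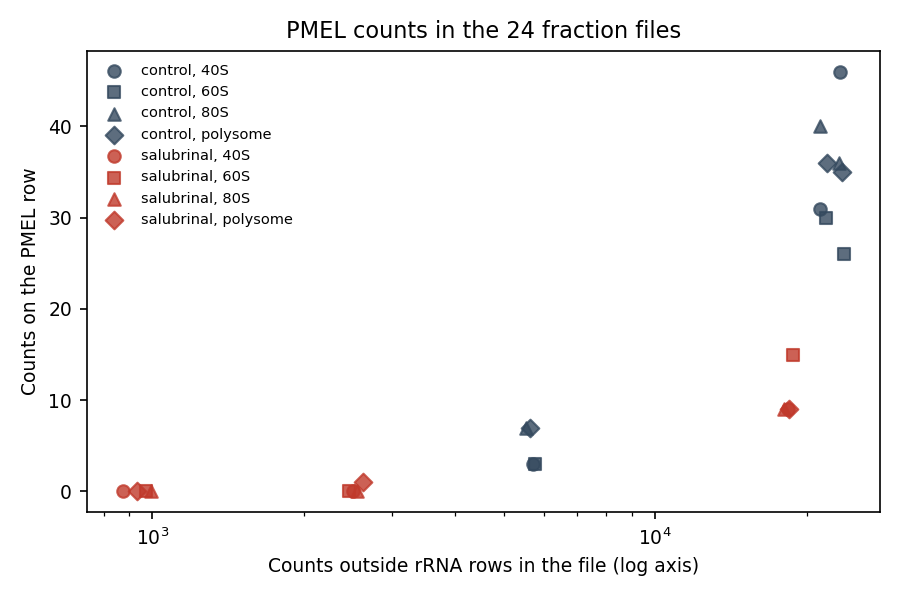
Counts on the PMEL row against counts outside rRNA rows (log axis) in each of the 24 fraction files; colour gives the treatment and marker shape the gradient pool. The 4 files of salubrinal library 3 hold 9 to 15 PMEL counts at a depth where the files of control libraries 1 and 3 hold 26 to 46, and the other 8 salubrinal files hold 0 or 1.

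The mean PMEL share was 2.23 ± 3.05 per 10000 with salubrinal and 13.3 ± 3.89 in the controls (SD, n = 3). The two-sided exact permutation test gave p = 0.1, the smallest p that 3 against 3 allows. Such a lack of overlap was common: 26.3% of the 913 tested rows had every salubrinal share below every control share, and in single pools it held for 22.7% (40S), 23.5% (60S), 22.5% (80S) and 19.1% (polysome), so for PMEL it is no mark of its own. Across all tested rows, edgeR's quasi-likelihood test with TMM scaling put PMEL at -1.45 ± 0.39 on the log2 scale (SE; adjusted p = 0.00776), with 2.08% of rows called lower and 3.61% higher. By this test PMEL fell. Mean CPM was 17.0 ± 4.25 in the controls and 3.22 ± 4.26 with salubrinal (SD, n = 3), a wider gap than the fitted value. The salubrinal mean includes libraries with 1 and 0 PMEL counts, and the highest salubrinal library stood at 8.06 CPM. TMM factors ran from 0.09 to 5.19. The labels do not call the replicates separate cultures, and the p-values then reflect only how far these libraries differ, which may be technical.

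The call rested on single libraries. With edgeR the adjusted p was 0.191 without salubrinal library 1 (log2 fold change -1.31), 0.095 without control library 1 (-1.44) and 0.164 without control library 3 (-1.40). Without salubrinal library 3 the value was -3.98 (adjusted p = 0.0226), since 1 PMEL count then remained on the salubrinal side. With salubrinal library 3 alone against the 3 controls, a setting chosen after the data were seen in which the lone library is assumed to vary like the controls, edgeR gave -1.06 ± 0.35 (adjusted p = 0.0453), and 110 of the 1753 rows tested were called. DESeq2 did not call PMEL (-1.92, adjusted p = 0.163). The direction was the same in each of the 17 alternative settings of the summed comparison.

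**Figure D4:**
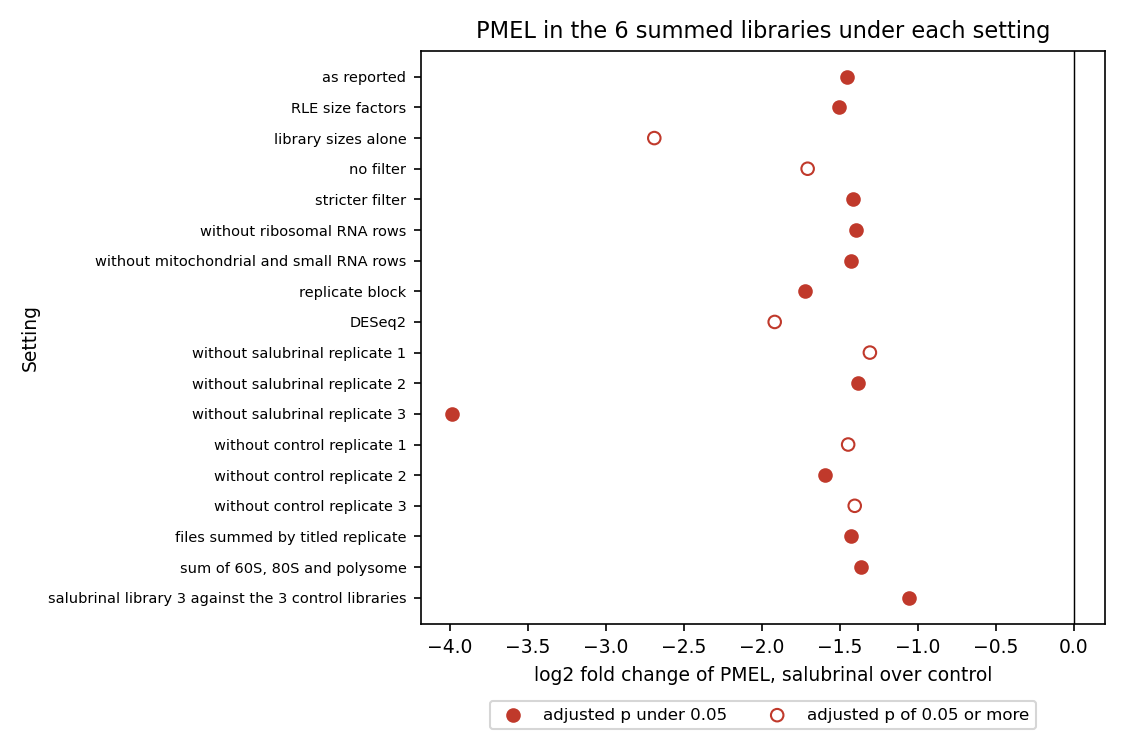
Log2 fold change of PMEL in the 6 summed libraries as reported and under 17 alternative settings; filled points have an adjusted p under 0.05. All points lie below 0, between -3.98 and -1.06, and 6 of the alternatives are open points.

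In the pools taken as designed, PMEL fell in 40S, 80S and polysome and did not pass in 60S. In 40S the counts were 0, 0 and 9 with salubrinal and 3, 31 and 46 in controls, which gave -1.82 ± 0.48 on the log2 scale (SE; edgeR adjusted p = 0.0083; 1.78% of 225 rows called lower, 6.22% higher). In 80S they were 0, 0 and 9 against 40, 7 and 36, with -1.88 ± 0.46 (edgeR adjusted p = 0.0018; 5.16% of 213 rows called lower, 7.51% higher). Both pools show the same picture of empty rows in the shallow salubrinal libraries and a low row in the deep one.

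In polysome the counts were 1, 0 and 9 against 36, 7 and 35, with -1.66 ± 0.51 (edgeR adjusted p = 0.0368; 1.24% of 241 rows called lower, 2.49% higher). In 60S they were 0, 0 and 15 against 30, 3 and 26, with -0.65 ± 0.49 (edgeR adjusted p = 0.469; 2.99% of 234 rows called lower, 6.84% higher), and here the groups overlapped. The call was lost in 7 of 13 alternative settings in 40S, 7 of 14 in 80S and 9 of 14 in polysome, among them DESeq2 (adjusted p = 0.999, 0.11 and 0.998) and leaving out salubrinal replicate 1, salubrinal replicate 3 or control replicate 3 (in polysome control replicate 2 too; edgeR adjusted p up to 0.3, 0.158 and 0.365). The effect was not shown to differ between pools. The interaction test cannot settle this, because the pools of a library held the same counts outside rRNA within sampling noise. It also took the files of the same library as independent. The log2 fold change in 40S, 80S and polysome minus that in 60S was -1.14 ± 0.80, -1.19 ± 0.82 and -0.97 ± 0.81 (SE; edgeR interaction, adjusted p = 0.999, 0.989 and 0.996), with 0 rows called in each interaction fit (unadjusted p for PMEL = 0.152, 0.148 and 0.232).

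Both rows MYEF2 and KIAA2026 held more reads than the pigment rows they overlap. SLC24A5 had 8 counts over the 24 files, while MYEF2, a protein-coding gene that overlaps it, had 878. In the input files the row Myef2 had 16 counts with salubrinal and 17 without, under the minimum for a ratio. MLANA had 7 counts and the overlapping gene row KIAA2026 had 108, of which 6 were in salubrinal and 102 in control files. These totals are not scaled for depth, which differed widely between libraries, and no test of KIAA2026 is given. The pseudogene row CBX3P7, which overlaps TYR, had 9 counts, and RPL5P32 within OCA2 and MIR211 within TRPM1 had 0. PMEL overlapped no gene in the RefSeq table used, and its neighbour CDK2 had 7 counts. No source used here states the strand setting of the counting, so reads of a gene and of its overlapping partner cannot be told apart.

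The MYEF2 row was lower with salubrinal, like PMEL. Per 10000 counts outside rRNA it took 16.7, 7.96 and 14.8 in the salubrinal libraries and 40.8, 42.4 and 32.0 in the controls, from 129 and 749 counts in all. The groups did not overlap, which also held for 26.3% of the 913 tested rows and is no mark of MYEF2 either. Salubrinal library 3 (12.2 to 17.9) lay below the interval of every control library, of which the lowest runs from 28.5 to 35.8. Summed, it stood at -1.22 ± 0.47 on the log2 scale (SE; edgeR adjusted p = 0.0913), which did not pass. Of all rows tested, 1.78% in 40S, 2.99% in 60S and 5.16% in 80S were called lower. The MYEF2 row passed in 40S (-1.39, edgeR adjusted p = 0.0451), 60S (-1.30, 0.0309) and 80S (-1.38, 0.0252), and not in polysome (-1.08, 0.197). These calls ended in 9 of 14 alternative settings in 40S, 9 of 14 in 60S and 8 of 14 in 80S, among them leaving out any 1 library other than salubrinal replicate 2 (edgeR adjusted p up to 0.282, 0.498 and 0.295) and, in 40S and 60S, DESeq2 (adjusted p = 0.999 in both).

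**Figure D5:**
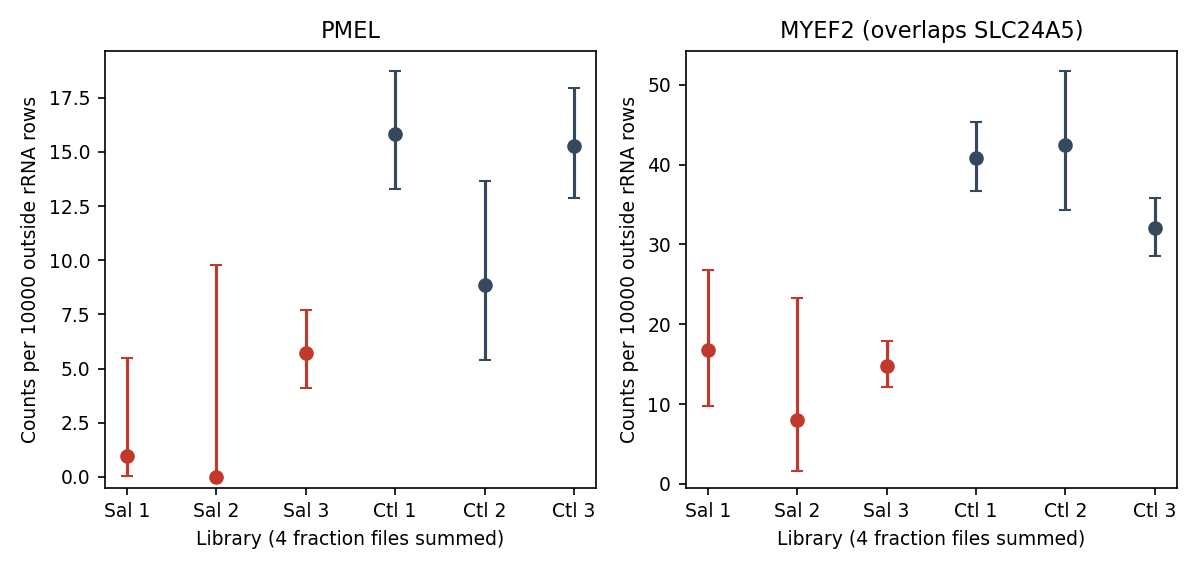
Share of the PMEL row (left) and the MYEF2 row (right) in each of the 6 summed libraries, per 10000 counts outside rRNA rows, with exact 95% binomial intervals for counting error; Sal, salubrinal; Ctl, control. In both panels the 3 salubrinal points lie below the 3 control points, at most 5.71 against at least 8.83 for PMEL and 16.7 against 32.0 for MYEF2. The same held for 26.3% of the 913 tested rows.

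The rows most like PMEL over the 6 libraries, by Pearson correlation of log2 CPM among 912 tested rows, were LAMA5, a laminin chain gene (r = 0.996, 238 counts), and the unnamed transcripts RP11-78A19.3 (r = 0.991, 149 counts) and AC107081.5 (r = 0.991, 246 counts). These correlations describe 6 points that share library depth and scaling, and the rows hold few counts. Set side by side, the PMEL row had a log2 value of -1.45 in the summed gradient libraries and -1.02 in the input. The input value has no replicates and comes from files with other row names, so the pair was not compared further.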

How the data were processed

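The deposited tables hold read counts per gene row, made by the authors and not normalized. Per the labels' protocols, libraries were prepared with a stranded total RNA kit; build hg19 and the tools HTSeq 0.5.3p3, STAR, DESeq, FastQC 0.11.5 and SAMtools 0.1.19.24 are named, without roles, per the submitters' processing notes. Rows that name no gene (94.2 to 95.3% of the counts in fraction files, 92.9 and 94.1% in the inputs) were left out.

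Input ratios used TMM factors from edgeR 4.0.16 in R 4.3.3, a prior count of 2 and a minimum of 50 counts over both libraries. PMEL was tested in a fit over all rows (filterByExpr, TMM, robust quasi-likelihood fit, Benjamini-Hochberg threshold 0.05), per pool and on summed libraries; each SE was derived from the estimate and its p on the normal scale. The steps were also run on simulated counts with simpler noise than real libraries, and the outcome is not used as support here. Shares used counts outside 525 nuclear rRNA rows. Intervals and floors cover counting error only.

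Named genes are the 10 members, rows overlapping them (by position in GRCh38, without regard to strand), the 2 highest and 2 lowest measured genes of each list (1 of these is not reported here), and the 3 rows most like PMEL; Cdk2 and KIAA2026 are given as neighbour and overlapping row. The members and lists were chosen with earlier results of these data known. Alternatives were RLE factors, library sizes alone, filters, removal of row classes, DESeq2 1.42.0, a replicate block, a joint fit and leaving out each replicate.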

Additional observations from a re-analysis of the deposited data

How the results depend on the processing

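The number of members at least 2-fold lower in the input was 5 with RLE factors, without mitochondrial rows and the largest row, with a prior count of 0.5 and with a minimum of 200 counts, and 2 on total gene-row counts. PMEL lost its call on library sizes alone, which moved the median of all rows by about as much, in 40S (-3.10), 80S (-3.04), polysome (-2.80) and the sum (-2.69). It also lost it with no filter, where more rows were tested (-1.999, -2.13, -1.86 and -1.70). Against the median of all rows, which moved too, these are -0.52, -0.72, -0.51 and -0.91, and 60S turns to 0.41. That median covers another set of rows (6021 against 225 in 40S, 10224 against 913 in the sum). The values set against it are therefore not like those of the main fit. PMEL lost its call with DESeq2, run on all rows with a count (-2.32, -2.26, -1.81 and -1.92). A joint fit of the 24 files ended the call in 80S (-1.90) and polysome (-1.63); the cause was not tested. Leaving out 1 replicate gave -7.08 to -1.43 in 40S, -6.66 to -0.48 in 60S, -7.16 to -1.65 in 80S, -2.47 to -1.60 in polysome and -3.98 to -1.31 in the sum, where the lowest values in 40S, 60S and 80S come from salubrinal rows all at 0 and depend on the prior count. PMEL did not pass the low-count filter in 40S and 60S without rRNA rows, in 40S without control replicate 2, or in 80S and polysome without control replicate 1, so these gave no value. The share difference (-11.1 per 10000) ran from -13.3 to -9.81 when 1 library was left out, and over all gene-row counts it was -0.447 (exact permutation p = 0.2). Same-numbered libraries of the treatments share only a number (correlations of their deviations -0.02, 0.17 and 0.31, with 2 of the 3 salubrinal libraries closest to their own number). With that number as a replicate block PMEL stood at -1.72 in the sum (edgeR adjusted p = 0.0458), -1.87 in 80S (0.0388), -2.05 in 40S (0.349), -1.68 in polysome (0.0994) and -0.78 in 60S (0.67). MYEF2 passed in the sum in 4 of 15 settings (without rRNA rows, with DESeq2, without salubrinal replicate 2, and salubrinal library 3 alone, chosen after the data were seen), and with a replicate block in no pool. Counts of called rows moved by over 1.5 times under many settings: 52 rows were called in the sum and 8 to 117 when 1 library was left out, with 0 on library sizes alone by edgeR (0 at an unadjusted p under 0.05) and 24 by DESeq2. Depth outside rRNA rows limits the fraction values, and the single library per treatment limits those of the input.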
